A study of Homo sapiens with 8 samples.

Results

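Transfer RNA (tRNA) genes and other small RNA genes with mTOR peaks were examined in the 4 mTOR peak lists of this chromatin immunoprecipitation study. A peak belonged to the set when its detailed annotation named a repeat of the class tRNA, rRNA, snRNA, scRNA, srpRNA or RNA and when it lay on chromosomes 1 to 22, X or Y. The rule selected 253 of 125713 peaks, which merged into 140 separate regions. Class tRNA held 230 of these peaks in 119 regions on 18 chromosomes. Class rRNA held 6 peaks in 6 regions, snRNA 6 peaks in 5, scRNA 5 peaks in 5 and srpRNA (the 7SL RNA of the signal recognition particle) 6 peaks in 5, whereas no peak carried the class RNA.

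LNCaP cells, an androgen-responsive line derived from human prostate cancer, were used throughout. The 4 groups were shFoxA1 with R1881, shFoxA1 with EtOH, shEV with R1881 and shEV with EtOH, where shFoxA1 is a hairpin that knocks down the pioneer factor FoxA1, shEV is the empty vector, R1881 is a synthetic androgen given at 10 nM and EtOH is its vehicle at 0.1%. All groups shared 48 h in medium with 2% charcoal-stripped serum before the 24 h treatment, and each group has 1 library, so the differences given here carry no replicate error and no p-value. The labels do not say whether the hairpin cells were a pool or a clone, and peak lists carry no RNA or protein level, so neither the knockdown nor the identity of the cells was checked here.

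tRNA genes, like those for 5S rRNA, U6 snRNA, 7SK, 7SL, Y and vault RNAs, are transcribed by RNA polymerase III. In a tRNA gene the factor TFIIIC binds an A box and a B box that lie inside the transcribed sequence and places TFIIIB, which recruits the polymerase. 5S genes use an internal promoter of another type, and U6, 7SK, RMRP and Y RNA genes use elements upstream of the start. mTOR is a kinase that couples growth to nutrients, and it is known from other cells to control polymerase III output in part through the repressor MAF1.

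Whole tRNA genes were read from the RefSeq promoter table of GRCh38.p14, which covers 14 of them. Those below are shown because they share nearly all of their sequence but not their presence in the lists. Capitals mark the B box, searched as GTTCNANNC on both strands, and each sequence is written 5′ to 3′ on the strand on which the B box reads forward. TRN-GTT6-1, a tRNA-Asn gene at chr1:143735920-143735993 on the minus strand, lay in a region with a peak in all 4 lists. TRN-GTT4-1, at chr1:16889677-16889750 on the plus strand, had a peak in no list. TRH-GTG1-9, a tRNA-His gene at chr15:45201151-45201222 on the plus strand, had a peak in all 4 lists, and TRH-GTG1-3, at chr1:148281365-148281436 on the plus strand, in none.
TRN-GTT6-1: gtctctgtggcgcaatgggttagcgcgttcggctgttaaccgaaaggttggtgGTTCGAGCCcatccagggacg
TRN-GTT4-1: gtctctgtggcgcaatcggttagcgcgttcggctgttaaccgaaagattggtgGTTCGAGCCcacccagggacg
TRH-GTG1-9: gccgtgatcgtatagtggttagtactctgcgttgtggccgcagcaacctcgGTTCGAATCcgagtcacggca
TRH-GTG1-3: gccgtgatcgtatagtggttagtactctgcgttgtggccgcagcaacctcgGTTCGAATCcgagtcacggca

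The tRNA-Asn pair differed at 3 of 74 positions and the tRNA-His pair at 0 of 72. Another identical pair, the tRNA-Pro genes TRP-TGG3-2 and TRP-TGG3-5, had a peak in all 4 lists at both genes. The B box matched in 14 of the 14 genes, against 7.48% of 35116 RefSeq promoter windows of 300 bp, which are longer than the genes. Since the B box is part of a tRNA gene, this match follows from the choice of genes and says nothing on the peaks. The B box was present in the genes with a peak and in the 2 without. The reads were 150 bp, longer than these genes, so only reads shortened by trimming could fall wholly inside one. How the reads over such copies were assigned, and whether the flanking sequence is unique, was not tested.

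The members made up a small and similar number of peaks in every library. There were 65 in shFoxA1 R1881 (0.164% of 39570 peaks; Wilson 95% interval 0.129 to 0.209), 66 in shFoxA1 EtOH (0.188% of 35121; 0.148 to 0.239), 61 in shEV R1881 (0.234% of 26074; 0.182 to 0.300) and 61 in shEV EtOH (0.245% of 24948; 0.190 to 0.314). Class tRNA accounted for 58 in shFoxA1 R1881, 57 in shFoxA1 EtOH, 58 in shEV R1881 and 57 in shEV EtOH. The number of tRNA peaks thus stayed level while the lists differed in length, and intervals here and below cover counting error only.

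Peaks of class tRNA ranked high in their own lists. Each peak carries a score set by the authors' peak calling, and what the score measures was not stated in the labels or headers, so it was used only to rank peaks within a list. The median tRNA peak stood at percentile 94.8 in shFoxA1 R1881, 91.1 in shFoxA1 EtOH, 90.9 in shEV R1881 and 87.2 in shEV EtOH. Peaks annotated to Alu, an abundant repeat descended from 7SL RNA, had medians at percentile 37.4 in shFoxA1 R1881, 36.6 in shFoxA1 EtOH, 38.0 in shEV R1881 and 38.4 in shEV EtOH, and peaks in MIR, a repeat descended from tRNA, had the same medians. Of the tRNA peaks, 50 of 58 in shFoxA1 R1881, 41 of 57 in shFoxA1 EtOH, 44 of 58 in shEV R1881 and 38 of 57 in shEV EtOH lay in the highest-scoring 20% of their list. The other classes lay lower or were too few to place, with medians at percentile 37.4 (7 peaks) in shFoxA1 R1881, 58.1 (9 peaks) in shFoxA1 EtOH, 53.5 (3 peaks) in shEV R1881 and 75.0 (4 peaks) in shEV EtOH.

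**Figure D1:**
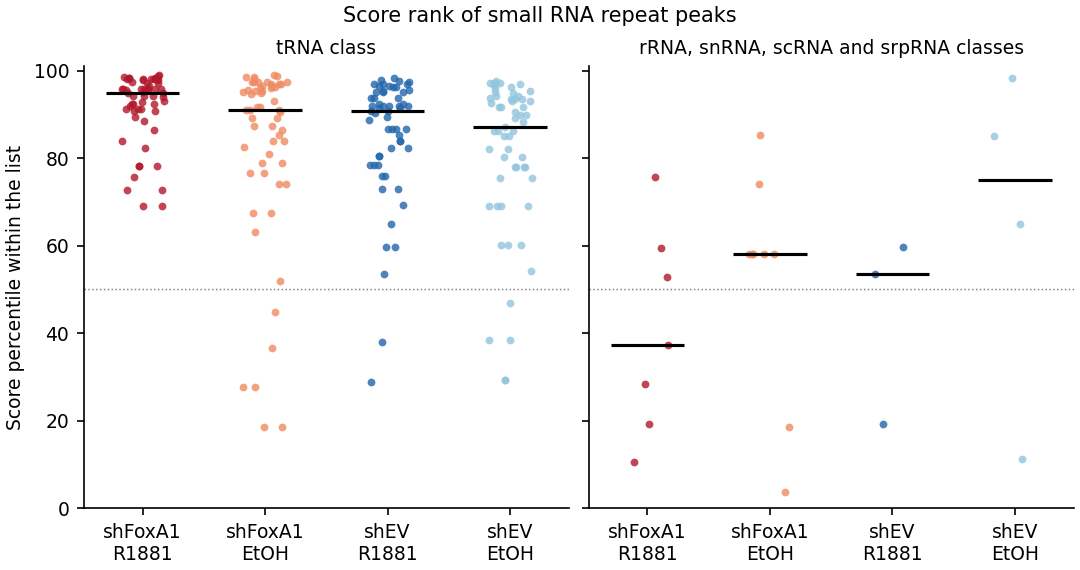
Score percentile of each member peak within its own list, for class tRNA (left) and for the rRNA, snRNA, scRNA and srpRNA classes together (right), by library; black bars are medians and the dotted line is percentile 50. The tRNA medians lie between 87.2 and 94.8 in the 4 lists, while the 23 other peaks scatter over the range.

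The highest-ranked member regions held genes for tRNA-Val, tRNA-Leu, tRNA-Pro, tRNA-Phe and tRNA-Lys, with tRNA-Val more than once. One on chromosome 5 (chr5:181173232-181174898) covered TRV-CAC1-4 (tRNA-Val) and TRL-AAG1-3 (tRNA-Leu). It scored 1146 in shFoxA1 R1881, 813 in shFoxA1 EtOH, 562 in shEV R1881 and 549 in shEV EtOH. Another (chr5:181217823-181218933), over TRV-AAC1-4 (tRNA-Val), scored 1112 in shFoxA1 R1881, 720 in shFoxA1 EtOH, 806 in shEV R1881 and 715 in shEV EtOH. A region on chromosome 1 (chr1:121020155-121021686) over TRV-CAC5-1, a tRNA-Val gene, scored 1063 in shFoxA1 R1881, 1005 in shFoxA1 EtOH, 806 in shEV R1881 and 793 in shEV EtOH. The region chr14:20632102-20633870 over TRP-TGG1-1, a tRNA-Pro gene, scored 838 in shFoxA1 R1881, 1154 in shFoxA1 EtOH, 652 in shEV R1881 and 491 in shEV EtOH. A region on chromosome 11 (chr11:59555850-59558223) over the tRNA-Phe gene TRF-GAA1-3 and the tRNA-Lys gene TRK-TTT5-1 scored 1247 in shFoxA1 R1881, 720 in shFoxA1 EtOH, 759 in shEV R1881 and 301 in shEV EtOH. Each of these regions had a peak in every library, but in only 1 list was that peak named tRNA. This list was shFoxA1 R1881 for TRV-CAC5-1, shFoxA1 EtOH for TRP-TGG1-1 and TRV-AAC1-4, and shEV EtOH for TRF-GAA1-3 and TRV-CAC1-4. Here and below, the score of a region or small RNA gene is that of its highest peak, whatever its annotation. Since scores rank peaks within a list only, no order between libraries is read from them.

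Most of the tRNA regions lay on chromosome 6, where a large tRNA gene cluster adjoins histone genes. Chromosome 6 held 65 of the 119 regions, chromosome 1 held 14, and chromosomes 14 and 16 held 7 each. For comparison, chromosome 6 held 155 of all 443 RefSeq tRNA genes. It held 115 of the 312 such genes that a peak of any annotation overlapped in at least 1 list. The repeat names covered 21 kinds of tRNA, counting initiator methionine apart, with alanine most frequent (36 peaks in 15 regions). Of the 230 peaks, 219 overlapped a RefSeq tRNA gene, and in 217 of these the repeat name and the gene symbol gave the same amino acid. The 2 exceptions were peaks named tRNA-Ala over TRV-AAC6-1, a tRNA-Val gene. At 5 regions no RefSeq tRNA gene lay under the repeat: 1 on chromosome 1 named tRNA-Gly, 3 on chromosome 6 named tRNA-Ile or tRNA-Met-i, and 1 on chromosome X named tRNA-Gly.

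Presence over the libraries was wide for tRNA regions. Of the 119 regions, 94 had a peak of some kind in all 4 lists, 11 in 3, 11 in 2 and 3 in 1. Over the whole series 19% of 61118 regions had a peak in all 4 lists, but a region present in more lists has more chances to be annotated, so shares per list are the fairer comparison. A peak in each of the other lists was found for 42 of 58 tRNA peaks of shFoxA1 R1881, against 29.5% of all peaks of that list. It was found for 45 of 57 in shFoxA1 EtOH (all peaks 33.3%), 49 of 58 in shEV R1881 (44.8%) and 56 of 57 in shEV EtOH (46.8%). Peaks in the highest-scoring 20% of each list were found in the other lists at 79.9% in shFoxA1 R1881, 87.9% in shFoxA1 EtOH, 87.0% in shEV R1881 and 93.2% in shEV EtOH. The tRNA shares were 72.4% (95% interval 59.8 to 82.2) in shFoxA1 R1881, 78.9% (66.7 to 87.5) in shFoxA1 EtOH, 84.5% (73.1 to 91.6) in shEV R1881 and 98.2% (90.7 to 99.7) in shEV EtOH, so their intervals held the value of the high-scoring peaks in 3 of the lists and ended just under it in shFoxA1 EtOH.

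The label was less stable than the peak. Only 8 of the 119 tRNA regions carried the class tRNA in all 4 lists, whereas 48 carried it in 1, 42 in 2 and 21 in 3. HOMER annotates a peak by its centre, and a tRNA gene is far narrower than a peak. Among these 8 was chr6:26330007-26330634 over TRX-CAT1-4, a gene for the initiator methionine tRNA that starts translation, with scores of 714 in shFoxA1 R1881, 614 in shFoxA1 EtOH, 434 in shEV R1881 and 314 in shEV EtOH. Another was chr6:28811903-28812309 over TRA-AGC6-1, a tRNA-Ala gene, with 244 in shFoxA1 R1881, 94 in shFoxA1 EtOH, 135 in shEV R1881 and 42 in shEV EtOH.

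Few tRNA peaks were present in 1 library of a pair and absent from the other. With R1881 in shFoxA1 cells, 6 of 58 tRNA peaks had no peak in EtOH (all peaks 44.5%), and 1 of 57 EtOH peaks had none in R1881 (all peaks 37.5%). In shEV cells the counts were 9 of 58 for R1881 peaks (45%) and 1 of 57 for EtOH peaks (42.6%). With the hairpin in R1881, 7 of 58 shFoxA1 peaks had no shEV peak (52.8%), and 1 of 58 shEV peaks had no shFoxA1 peak (27.9%). In EtOH the counts were 11 of 57 for shFoxA1 (49.2%) and 1 of 57 for shEV (28%). These tRNA shares lay below that of all peaks in each of the 8 cases, at 10.3% for R1881 in shFoxA1, 15.5% for R1881 in shEV, 12.1% for shFoxA1 in R1881 and 19.3% for shFoxA1 in EtOH. In the highest-scoring 20% of peaks the unmatched share ran from 4.26% to 10.6% for the peaks of R1881 or shFoxA1 and from 1.62% to 4.73% for those of the other library.

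Regions that followed a treatment or hairpin were few. Of the 119 tRNA regions, 9 lacked a peak only in shEV EtOH (all regions 4.37%), 5 had a peak in both R1881 lists only (5.27%), 4 in both shFoxA1 lists only (6.91%) and 0 in both EtOH lists only (3.21%). A peak in shFoxA1 R1881 alone was found at 2 of them (19.7%). The R1881-only regions lay over TRS-AGA4-1 (tRNA-Ser), TRA-AGC7-1 (tRNA-Ala), TRT-AGT3-1 (tRNA-Thr), TRC-GCA18-1 (tRNA-Cys) and a tRNA-Met-i repeat on chromosome 6. TRT-AGT3-1 (chr6:28726018-28726091) scored 269 in shFoxA1 R1881 and 50 in shEV R1881. TRC-GCA18-1 (chr7:149375759-149375830) scored 92 in shFoxA1 R1881 and 27 in shEV R1881, at percentile 69.1 of the shFoxA1 list and 10.6 of the shEV list. The shFoxA1-only regions lay over TRY-GTA4-1 (tRNA-Tyr), TRK-TTT1-1 (tRNA-Lys), TRP-AGG2-3 (tRNA-Pro) and TRH-GTG1-6 (tRNA-His). TRK-TTT1-1 (chr16:73478317-73478389), for instance, scored 102 in shFoxA1 R1881 and 188 in shFoxA1 EtOH. These genes were named after their values were seen.

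Since the label depends on the peak centre, the peaks were also set against the RefSeq tRNA genes, a step chosen after the lists had been seen. RefSeq holds 443 tRNA genes on the chromosomes used. A peak overlapped 310 of them (70.0%; 95% interval 65.6 to 74.1) in shFoxA1 R1881, 295 (66.6%) in shFoxA1 EtOH, 295 (66.6%) in shEV R1881 and 280 (63.2%) in shEV EtOH. In all 4 lists 275 genes (62.1%) had a peak, and 131 had one in no list. The same step over 1913 miRNA genes, with a median length of 80 bp against 73 bp for tRNA genes, gave 3.55% in shFoxA1 R1881, 4.34% in shFoxA1 EtOH, 1.52% in shEV R1881, 1.83% in shEV EtOH and 0.836% in all 4 lists. Over 1199 snoRNA genes it gave 1.58% in shFoxA1 R1881, 1.5% in shFoxA1 EtOH, 0.584% in shEV R1881 and 0.751% in shEV EtOH, and 0.5% in all 4 lists.

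**Figure D2:**
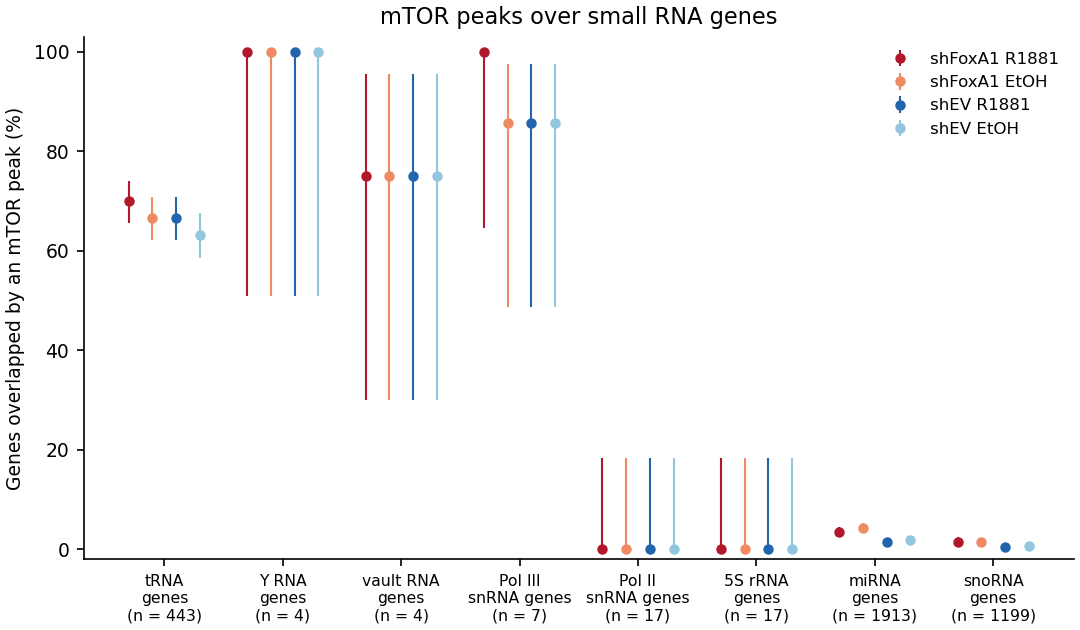
Share of RefSeq genes overlapped by an mTOR peak, in percent, for 8 kinds of small RNA gene and the 4 lists; bars are Wilson 95% intervals, which cover counting error only. tRNA genes lie between 63.2% and 70.0%, while miRNA and snoRNA genes stay below 5%, and none of the 17 polymerase II snRNA genes and 17 RNA5S genes plotted has a peak.

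Peaks that overlapped a tRNA gene mostly had their centre near it, although the required overlap bounds this distance by peak width. Their median width was 736 bp in shFoxA1 R1881, 743 bp in shFoxA1 EtOH, 651 bp in shEV R1881 and 685.5 bp in shEV EtOH. No other gene set was measured in this way. In shFoxA1 R1881, 250 peaks overlapped a tRNA gene, against 233 in shFoxA1 EtOH, 236 in shEV R1881 and 222 in shEV EtOH. The class tRNA was carried by only 55 in shFoxA1 R1881, 54 in shFoxA1 EtOH, 54 in shEV R1881 and 56 in shEV EtOH. The largest other group was annotated as intergenic, with 109 in shFoxA1 R1881, 87 in shFoxA1 EtOH, 99 in shEV R1881 and 83 in shEV EtOH. Where a peak covered 1 tRNA gene, its centre lay a median of 60.3 bp from the middle of the gene in shFoxA1 R1881, 71 bp in shFoxA1 EtOH, 63 bp in shEV R1881 and 54.5 bp in shEV EtOH. Within 200 bp lay 177 of 206 such peaks in shFoxA1 R1881, 159 of 188 in shFoxA1 EtOH, 168 of 192 in shEV R1881 and 157 of 179 in shEV EtOH.

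**Figure D3:**
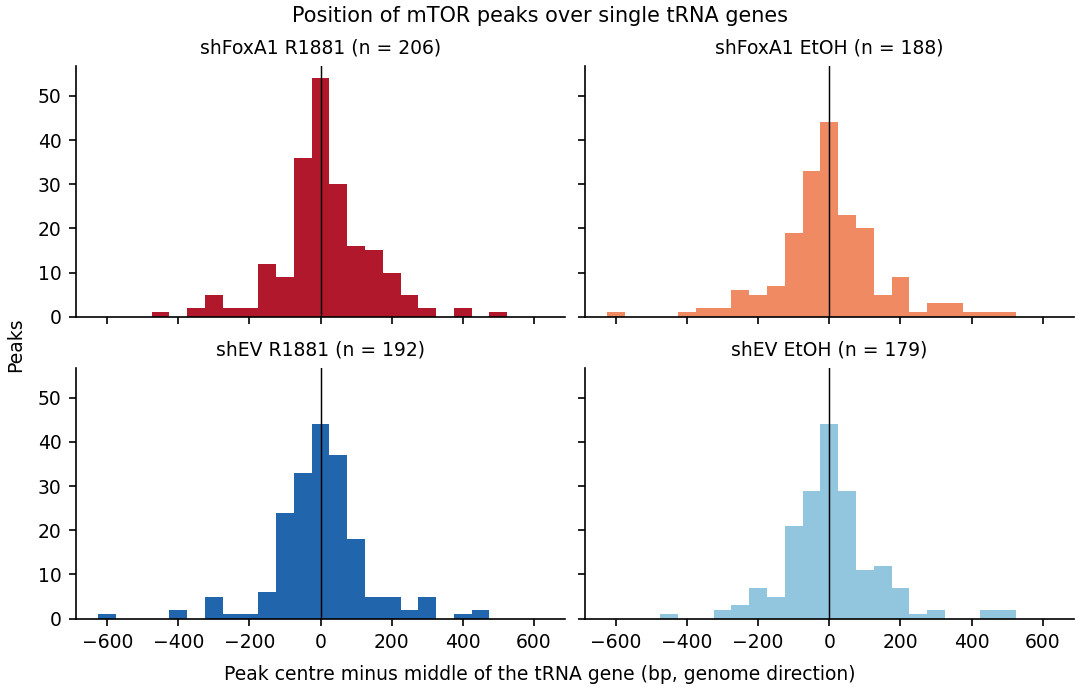
Distance in bp from the middle of the tRNA gene to the centre of the peak, for peaks over a single tRNA gene, in bins of 50 bp and by library; 2 peaks of shFoxA1 R1881, 1 of shFoxA1 EtOH, 0 of shEV R1881 and 1 of shEV EtOH fall outside the axis. Median distances are 54.5 to 71 bp. Only peaks that overlap the gene are plotted, so peak width bounds the distance.

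The share of genes with a peak differed by the amino acid carried. All 8 initiator methionine genes had a peak in all 4 lists, as did 18 of 20 genes for tRNA-Pro and 18 of 20 for tRNA-Thr, and each of those 40 had a peak in at least 1 list. At the other end, 5 of 29 tRNA-Cys genes (17.2%; 95% interval 7.60 to 34.5) had a peak in all 4 lists, followed by 4 of 11 elongator tRNA-Met genes (36.4%; 15.2 to 64.6), 4 of 9 for tRNA-His, 9 of 20 for tRNA-Glu and 12 of 26 for tRNA-Asn. The intervals of these last 4 kinds overlap widely. The gene for selenocysteine tRNA known to read UGA codons, TRU-TCA1-1, scored 901 in shFoxA1 R1881, 614 in shFoxA1 EtOH, 366 in shEV R1881 and 435 in shEV EtOH, and its second RefSeq entry, TRU-TCA2-1, had no peak. Of the initiator genes, TRX-CAT1-7 had the highest score in each list but shEV R1881, with 791 in shFoxA1 R1881, 1171 in shFoxA1 EtOH, 504 in shEV R1881 and 684 in shEV EtOH.

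**Figure D4:**
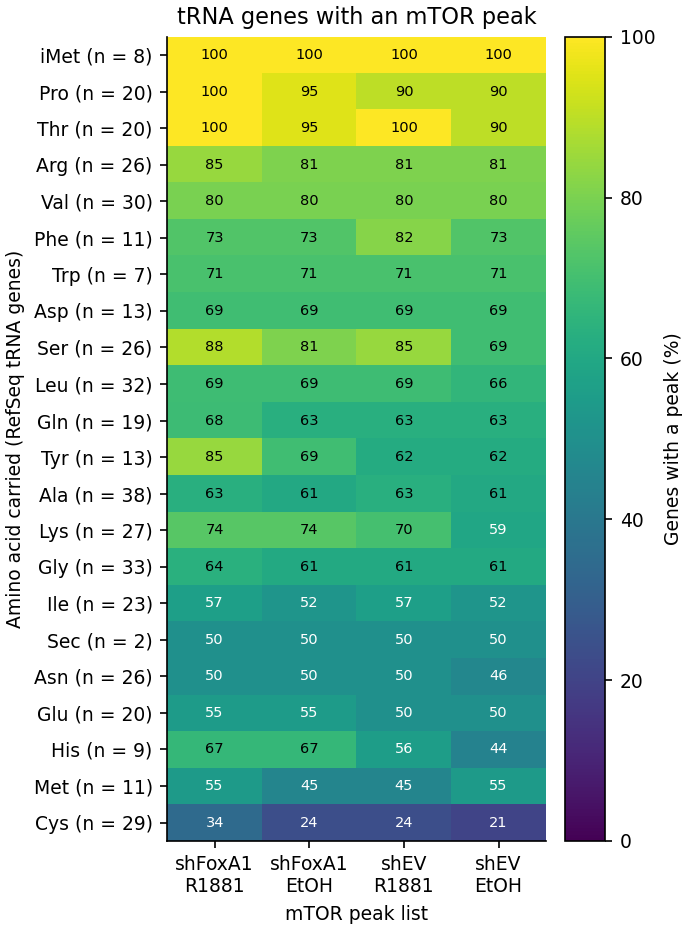
Percent of RefSeq tRNA genes overlapped by an mTOR peak, by the amino acid carried (rows, with the number of genes) and by list (columns); rows are ordered by the share with a peak in all 4 lists. Initiator methionine (iMet), proline and threonine genes stand at the top and cysteine genes at the bottom in all 4 lists.

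The share also differed by position. On chromosome 7, where many tRNA-Cys genes lie, 2 of 22 tRNA genes had a peak in all 4 lists, and on chromosome 1 the count was 40 of 98. In the chromosome 6 cluster between 26 and 29 Mb it was 94 of 144. Outside chromosomes 1, 6 and 7 it was 137 of 168 (81.5%; 95% interval 75.0 to 86.7). Whether amino acid or position goes with the peaks cannot be told apart for kinds that sit in 1 cluster, and how uniquely reads map in each cluster was not tested.

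**Figure D5:**
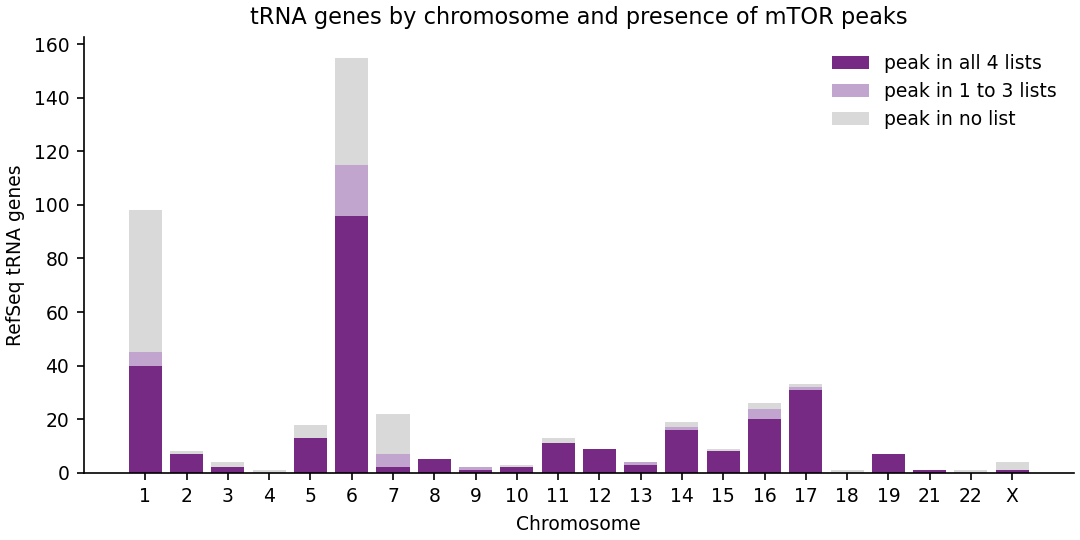
Number of RefSeq tRNA genes per chromosome, split by whether an mTOR peak overlapped them in all 4 lists, in 1 to 3 lists or in none. Chromosomes 1 and 7 hold the largest shares without a peak among those with over 20 genes, with 40 of 98 and 2 of 22 genes covered in all 4 lists.

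In each pair more tRNA genes had a peak in the R1881 or shFoxA1 library alone than in its counterpart alone, among 37 genes with a peak in 1 to 3 lists. With R1881 in shFoxA1 cells, 15 of 310 genes had a peak in R1881 alone and 0 of 295 in EtOH alone, where miRNA genes stood at 26.5% and 39.8%. In shEV cells 19 of 295 had a peak in R1881 alone and 4 of 280 in EtOH alone (miRNA genes 37.9% and 48.6%). With the hairpin in R1881, 17 of 310 had a peak in shFoxA1 alone and 2 of 295 in shEV alone (61.8% and 10.3%). In EtOH 17 of 295 had one in shFoxA1 alone and 2 of 280 in shEV alone (62.7% and 11.4%). In each pair the library with more genes also had the longer list, and the part of list length in these counts was not tested beyond the next comparison. Taking the 10000 highest-scoring peaks of every list, 25 genes were in R1881 alone and 3 in EtOH alone in shFoxA1 cells, and 21 in R1881 alone and 7 in EtOH alone in shEV cells. At that equal length 20 genes were in shFoxA1 alone and 2 in shEV alone in R1881, and in EtOH 14 were in shFoxA1 alone and 4 in shEV alone. With a peak centre required within 200 bp of the gene, the hairpin pair in EtOH turned, with 25 genes in shFoxA1 alone and 33 in shEV alone, and 145 genes rather than 275 had a peak in all 4 lists. The pairs share libraries and do not repeat each other independently.

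Genes present in fewer lists also ranked lower where present. Genes in all 4 lists had a median score percentile of 97.7 in shFoxA1 R1881, 97.3 in shFoxA1 EtOH, 95.8 in shEV R1881 and 95.1 in shEV EtOH. For genes in 1 to 3 lists the medians were 80.4 (35 genes) in shFoxA1 R1881, 69.2 (20 genes) in shFoxA1 EtOH, 64.9 (20 genes) in shEV R1881 and 60.1 (5 genes) in shEV EtOH. Of the 37 genes, 19 lay on chromosome 6, 13 were absent from shEV EtOH alone and 9 were present in shFoxA1 R1881 alone. The strongest member of the last group, TRS-AGA3-1 (tRNA-Ser, chr6:27532208-27532289), scored 398 in shFoxA1 R1881, at percentile 95.5, with no peak in the other lists.

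Several other polymerase III genes were covered too, although repeat classes other than tRNA rarely marked them. RN7SK, whose RNA holds the elongation factor P-TEFb inactive, scored 1792 in shFoxA1 R1881, 1411 in shFoxA1 EtOH, 838 in shEV R1881 and 761 in shEV EtOH. RMRP, the RNA of a ribonuclease that processes pre-rRNA, scored 2275 in shFoxA1 R1881, 829 in shFoxA1 EtOH, 886 in shEV R1881 and 669 in shEV EtOH. All 4 Y RNA genes (RNY1, RNY3, RNY4 and RNY5), whose RNAs bind the Ro60 protein, had a peak in all 4 lists, as did RPPH1, the RNA of RNase P. Of 3 7SL genes, RN7SL1 and RN7SL2 had a peak in all 4 lists and RN7SL3 in none. Among vault RNA genes VTRNA1-1, VTRNA1-2 and VTRNA1-3 had a peak in all 4 lists and VTRNA2-1 in none. VTRNA1-3 scored 2836 in shFoxA1 R1881, 1552 in shFoxA1 EtOH, 1586 in shEV R1881 and 1187 in shEV EtOH.

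Of the 154 RefSeq small nuclear RNA genes, 7 had a peak in all 4 lists and 10 in at least 1, and the groups given here were drawn up after the values were seen. Of the 7 genes for U6, U6atac and 7SK, transcribed by polymerase III, 6 had a peak in all 4 lists. The remaining one, RNU6-7, had it in shFoxA1 R1881 from the same wide peak as its neighbour RNU6-8. Of 17 polymerase II genes for U1, U2, U4, U4atac, U5, U7, U11 and U12 RNA, 0 had a peak in any list, and neither did any of 17 U1 variant genes. Of 28 SNAR genes, which are also polymerase III transcripts and lie in near-identical copies, SNAR-C3 had a peak in all 4 lists and SNAR-B1 in both shFoxA1 lists, and the others in none. Of 84 snRNA genes with LOC symbols, 1 had a peak, in shFoxA1 R1881. The 17 RNA5S genes of chromosome 1, which polymerase III also transcribes, had a peak in 0 of the 4 lists. A further 16 rRNA genes with LOC symbols, near the start of chromosome 1, had none but LOC124905432, with a peak in both EtOH lists only that scored 297 in shFoxA1 EtOH and 147 in shEV EtOH. The RNA5S genes are near-identical tandem copies, as are several U1 and U2 genes, so absence there cannot be told apart from reads that were not placed. Of 16 RefSeq genes for the pre-rRNA of polymerase I and its products, RNA45SN2 and RNA28SN2, which overlap each other, had a peak in all 4 lists and the others in none.

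The members of class rRNA were 5 peaks in 5S repeats and 1 in a small-subunit rRNA repeat. The highest, a 5S repeat on chromosome 8, lay in a region where only the shEV EtOH peak was named 5S. That region scored 580 in shFoxA1 R1881, 429 in shFoxA1 EtOH, 577 in shEV R1881 and 730 in shEV EtOH. A 5S repeat on chromosome 20 lay in a region of 2633 bp that overlapped the pseudogene RNA5SP528, and only its shEV R1881 peak was named 5S. The region scored 142 in shFoxA1 R1881, 113 in shFoxA1 EtOH, 76 in shEV R1881 and 50 in shEV EtOH. One on chromosome 1 at RNA5SP19 lay in a region with a peak in both R1881 lists only. It scored 65 in shFoxA1 R1881 and 42 in shEV R1881, and only the shFoxA1 R1881 peak was named 5S. The others lay on chromosomes 2, 22 and X, in regions with a peak in 1 list or in both shFoxA1 lists. None of the 6 lay on a RefSeq 5S gene.

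The snRNA repeats were named U2, U4, U6, U7 and U13. The highest-scoring region held a U2 repeat on chromosome 6 and also covered the tRNA-Gln gene TRQ-CTG2-1. That region scored 384 in shFoxA1 R1881, 211 in shFoxA1 EtOH, 157 in shEV R1881 and 169 in shEV EtOH. Only its shEV EtOH peak was named U2, and the highest peak of class snRNA was the U13 peak of shFoxA1 EtOH, at 177. A U13 repeat on chromosome 4 lay in a region with a peak in all 4 lists, but only the shFoxA1 peaks were named U13. The region scored 112 in shFoxA1 R1881, 177 in shFoxA1 EtOH, 50 in shEV R1881 and 115 in shEV EtOH. The region of the U6 repeat on chromosome 22 had a peak in all lists but shEV R1881, and only its shFoxA1 EtOH peak was named U6. The U4 (chromosome 1, at the pseudogene RNU4-88P) and U7 (chromosome 10) repeats had a peak in shFoxA1 R1881 alone, with scores of 34 and 41.

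The scRNA repeats were HY1 and HY3, copies of Y RNA genes, on chromosomes 2, 7, 8, 10 and 11. Only the region around the HY1 copy on chromosome 7 had a peak in all 4 lists. That region spanned 6040 bp, and only its shEV R1881 peak was named HY1. The srpRNA repeats were 7SL copies on chromosomes 7, 21 and 22. A region of 3120 bp around 1 copy on chromosome 21 had a peak in all 4 lists, but only its shEV EtOH peak was named 7SL. The region of 1 copy on chromosome 22 had a peak in both R1881 lists only. Whether the other peaks of these regions reach the repeat was not tested. Over the 4 classes 6 of 21 regions had a peak in all 4 lists and 9 in 1 list, 5 of these in shFoxA1 EtOH alone (all regions 14.7%). A RefSeq small RNA gene lay under 1 of the 21 (TRQ-CTG2-1) and a pseudogene under 5, against a tRNA gene under 114 of the 119 tRNA regions.

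Genes of a polymerase III pathway list carried peaks at shares near or above those of all coding genes. The list held polymerase subunits, transcription factors and MAF1. It also held proteins outside the transcription machinery, namely SSB, LARP7, MEPCE, RO60, SRP9, SRP14, SRP54, SRP68 and SRP72. Of 41 such genes, 25 (61.0%; 95% interval 45.7 to 74.3) had a peak within 50 kb of the transcription start in shFoxA1 R1881, where all coding genes stood at 51.6%. The count was 27 (65.9%; 50.5 to 78.4) in shFoxA1 EtOH against 49.1%, 16 (39.0%; 25.7 to 54.3) in shEV R1881 against 37.5%, and 19 (46.3%; 32.1 to 61.3) in shEV EtOH against 36.5%. These peaks may belong to other genes within that distance. A peak in all 4 lists was found for 12 of 41 (25.2% of coding genes). Among them were POLR3E and POLR3K, subunits of the polymerase, BRF1, a part of TFIIIB, and GTF3C2, a part of TFIIIC. SRP9 and SRP14, of the signal recognition particle, were also among the 12. POLR3E scored 371 in shFoxA1 R1881, 659 in shFoxA1 EtOH, 179 in shEV R1881 and 251 in shEV EtOH for its highest peak. POLR3B, BDP1, TBP and GTF3C3 had peaks in both shFoxA1 lists only (6.1% of coding genes). MAF1 and GTF3A had peaks in both EtOH lists only (1.47%), with 134 in shFoxA1 EtOH and 58 in shEV EtOH for MAF1. For the list as a whole, 0 of 41 had peaks in both R1881 lists only (2.36%).

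The 4 input libraries were not analysed here, and which control the peak caller used is not given in the sources. Whether input DNA is also rich at tRNA genes was not tested.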

How the data were processed

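mTOR-bound DNA was sequenced as 150 bp paired reads from 4 libraries, 1 per group. Per the submitters' processing notes, the build was hg38 and the tools included MACS2, HOMER 4.11.1 and the aligner BWA 0.7.12. Per the file headers, each deposited list is HOMER's annotation of peaks called in 1 library, with the authors' score, the deposited fraction of G and C, and the distance to a start site. Depth is unknown, so list lengths may reflect it. HOMER takes the class from the peak centre, and peaks within repeats depend on how reads were placed.

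Overlap was at least 1 bp, computed with Python 3.11.15, pandas 2.3.3 and numpy 2.4.6, and the overlap code was tested on simulated peaks. Small RNA genes came from RefSeq GRCh38.p14; the deposited start-site distances matched it within 2 bp for 80.1% of 27554 shFoxA1 R1881 peaks. Shares carry Wilson 95% intervals.

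Members and lists were chosen with earlier results of these data known. Regions of classes with at most 15 regions could all be named; for class tRNA, the named regions were those in all 4 lists, both lists of a treatment or hairpin, or among the 5 highest-scoring members of a list, limited to the 30 highest by score percentile. Pol III pathway genes were named when present in all 4 lists or in both lists of 1 treatment or hairpin. Any other gene named was chosen after its values were seen. Alternatives were shorter lists, stricter and looser overlap, and all sequences of the files.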

Additional observations from a re-analysis of the deposited data

Results flagged for a closer look

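On an unplaced sequence outside the chromosomes compared, 4 peaks were annotated to a small-subunit rRNA repeat, 1 in each list, with scores of 92 in shFoxA1 R1881, 123 in shFoxA1 EtOH, 104 in shEV R1881 and 42 in shEV EtOH. They lie outside the sequences compared, entering only the alternative with all sequences of the files, and measured 7527 bp in shFoxA1 R1881, 6046 bp in shFoxA1 EtOH, 6840 bp in shEV R1881 and 295 bp in shEV EtOH. The 4 input libraries were not analysed here, so their level in input was not tested.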

How the results depend on the processing

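Of 158 values recomputed under an alternative, 126 stayed within 1.5 times the reported count, or within 1 SD for score percentiles, and 32 did not. When each list was shortened to its 10000 top peaks, rRNA members numbered 0 in shFoxA1 R1881, shFoxA1 EtOH and shEV R1881, snRNA members 1 in both shFoxA1 lists, scRNA members 0, 1 and 0 in shFoxA1 R1881, shFoxA1 EtOH and shEV R1881, and srpRNA members 0, 0, 0 and 1 over the 4 lists. Member regions in both EtOH lists only numbered 1 and those in both shFoxA1 lists only 2; 2 members of shFoxA1 EtOH were unmatched in shFoxA1 R1881, and 7 and 9 members of shFoxA1 had no shEV peak in R1881 and in EtOH. Fewer peaks entered, so the class counts can only fall; for the other counts the cause was not tested. tRNA genes in R1881 alone then numbered 25 and in EtOH alone 3 in shFoxA1 cells; in shEV cells 7 were in EtOH alone, and in EtOH 4 were in shEV alone. With all sequences counted, rRNA members numbered 2 in each shEV list. Requiring a peak centre within 200 bp of the gene left 190 tRNA genes in shFoxA1 EtOH and 145 in all 4 lists. Genes in 1 list of a pair then numbered 36 (R1881) and 14 (EtOH) in shFoxA1, 33 (R1881) and 29 (EtOH) in shEV, 35 (shFoxA1) and 25 (shEV) in R1881; in EtOH the order turned, with 25 in shFoxA1 alone and 33 in shEV alone. The cause was not tested. The step on RefSeq genes and its alternatives were chosen after seeing the data. No paired analysis was possible because each group is 1 library, and no replicate could be left out.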
